A study of Mus musculus with 10 samples.

Results

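Parental-only regions are stretches of the mouse genome with an H3K27me3 peak in the untreated parental lymphoma line and in none of the 4 mafosfamide-resistant lines grown from it. They were found by dropping repeated rows from the 5 peak lists, merging overlapping intervals of all lists into union regions, and keeping those that held a peak of the parental list alone. The members were thus selected on the presence and absence of peak calls, and these calls are given as a description. Of 47264 union regions, 4967 met this rule, which is 10.5% of all regions. They made up 52.7% of the 9433 regions with a parental peak and 25.02% of the length that parental peaks covered (408 kb).

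All lines carried the Eμ-Myc transgene, which expresses Myc from an immunoglobulin heavy chain enhancer, lacked Cdkn2a (Cdkn2a-/-), and came from 1 lymphoma line of a C57BL/6J mouse. The parental line had not been selected with drug. The resistant lines had been selected in mafosfamide, a drug that alkylates DNA. As the dose was raised, R100 was harvested on day 10 at 100 nM, R500 on day 18 at 500 nM, R1000 on day 23 at 1000 nM and R4000 on day 37 at 4000 nM. Cells for chromatin immunoprecipitation were then grown without drug. Because all resistant lines descend from the same parental culture by dose escalation, they are not independent lines, and each line is represented by 1 list with no measure of spread.

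H3K27me3 is trimethylation of lysine 27 on histone H3. It is placed by Polycomb repressive complex 2, whose catalytic subunit is Ezh2 or Ezh1, and it is read by Polycomb repressive complex 1. In mammals the mark is typical of silent genes with CpG-rich promoters, above all genes for developmental regulators such as the Hox clusters, and broad weaker domains cover other silent chromatin.

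The parental list held 10778 distinct peaks. The resistant lists held 25180 (R100), 21888 (R500), 9595 (R1000) and 6820 (R4000). Peaks lie on a grid of 50 bp and are given as start and end with no height or score, so a region absent from a list may still have carried a weaker signal. Read depth is not known, and the number of peaks in a list moves with the number of regions that can be found in it alone. Regions of 1 line only made up 61.8% of the regions of R100, 55.7% of those of R500, 38.7% of those of R1000 and 34.2% of those of R4000. The parental share of 52.7% lay between these values. Since the lines cannot be tested against each other, shares are given with 95% Wilson intervals, which cover the counting of regions only and treat neighbouring regions as independent.

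Sequences of 6 parental-only regions are shown with 1 region marked in all 5 lines, so that their CpG content can be compared by eye. They are the plus strand of mm9, with CpG dinucleotides in capitals. The printed stretch is the central 300 bp, or the whole region where it was shorter. The parental-only examples are the 2 widest regions (near Pcp4l1 and Spa17), the wide region upstream of Arntl, the widest region of the immunoglobulin kappa locus, a region far from any gene (Atp6v1g3) and the widest of those that lay over a protein-coding start site (C4bp). The comparison is the widest region marked in all 5 lines, of 8150 bp, at Hoxa7.
Pcp4l1 (parental-only, chr1:173126801-173127100): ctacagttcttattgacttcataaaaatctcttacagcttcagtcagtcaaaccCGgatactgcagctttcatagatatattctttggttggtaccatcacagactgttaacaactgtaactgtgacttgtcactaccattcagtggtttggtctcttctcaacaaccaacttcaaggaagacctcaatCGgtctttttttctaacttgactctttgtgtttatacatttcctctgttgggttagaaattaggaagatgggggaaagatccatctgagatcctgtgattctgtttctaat
Spa17 (parental-only, chr9:37392951-37393250): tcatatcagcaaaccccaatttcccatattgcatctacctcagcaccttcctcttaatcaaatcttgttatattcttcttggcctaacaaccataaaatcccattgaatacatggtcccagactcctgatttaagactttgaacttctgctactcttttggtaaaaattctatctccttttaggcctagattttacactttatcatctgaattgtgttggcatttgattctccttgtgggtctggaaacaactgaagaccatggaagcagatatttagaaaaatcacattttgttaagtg
Arntl (parental-only, chr7:120348476-120348775): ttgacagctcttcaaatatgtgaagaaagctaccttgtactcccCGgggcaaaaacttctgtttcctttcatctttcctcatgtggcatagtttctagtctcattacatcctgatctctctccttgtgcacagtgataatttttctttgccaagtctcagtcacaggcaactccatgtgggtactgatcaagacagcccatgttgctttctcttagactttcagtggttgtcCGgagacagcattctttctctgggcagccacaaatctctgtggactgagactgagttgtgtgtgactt
Igkv15-103 (parental-only, chr6:68409926-68410225): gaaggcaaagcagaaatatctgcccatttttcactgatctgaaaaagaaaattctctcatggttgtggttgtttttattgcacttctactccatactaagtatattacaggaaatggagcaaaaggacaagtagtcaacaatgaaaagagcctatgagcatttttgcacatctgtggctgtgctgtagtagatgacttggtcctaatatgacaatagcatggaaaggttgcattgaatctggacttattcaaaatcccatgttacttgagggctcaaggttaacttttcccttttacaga
Atp6v1g3 (parental-only, chr1:140267026-140267325): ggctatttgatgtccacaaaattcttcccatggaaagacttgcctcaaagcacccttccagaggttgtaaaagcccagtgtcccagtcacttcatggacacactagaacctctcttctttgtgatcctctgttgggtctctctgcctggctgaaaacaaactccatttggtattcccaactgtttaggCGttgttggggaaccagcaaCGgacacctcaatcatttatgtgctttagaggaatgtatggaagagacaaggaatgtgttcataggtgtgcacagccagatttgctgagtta
C4bp (parental-only, chr1:132558151-132558300): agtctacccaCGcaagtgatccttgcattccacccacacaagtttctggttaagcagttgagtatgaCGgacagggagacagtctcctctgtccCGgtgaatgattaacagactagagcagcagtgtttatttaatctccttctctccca
Hoxa7 (in all 5 lines, chr6:52168776-52169075): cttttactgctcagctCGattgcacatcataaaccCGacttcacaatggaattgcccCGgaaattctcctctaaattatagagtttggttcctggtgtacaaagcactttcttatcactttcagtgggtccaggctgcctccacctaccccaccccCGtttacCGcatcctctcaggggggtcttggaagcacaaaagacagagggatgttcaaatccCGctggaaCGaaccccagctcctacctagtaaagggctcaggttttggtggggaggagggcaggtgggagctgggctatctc
The central 300 bp held 2 CpG dinucleotides in the Pcp4l1 region, 0 in the Spa17 region, 2 in the Arntl region, 0 in the kappa region and 2 in the Atp6v1g3 region. The C4bp region, of only 150 bp, held 3 and had a GC content of 47.3%. The stretch at Hoxa7 held 7 and had a GC content of 52.0%, while the 5 parental-only stretches of 300 bp ranged from 36.3% at Spa17 to 45.7% at Atp6v1g3.

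Parental-only regions were narrow. Of the 4967, 2829 were 50 bp wide (57.0%, interval 55.6 to 58.3), the smallest width the grid allows, 1564 were 100 bp wide, and 331 were 150 bp wide. Only 59 reached 300 bp (1.19%), and the widest were 600 bp. Parental regions also found in a resistant line had a median width of 500 bp when all lines were merged. Width is tied to the rule, since a wider interval has more chance to overlap a peak of another list, so these widths describe the members and are not a finding about them.

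The same relation appeared when regions were sorted by the length that parental peaks covered. The share found in the parental list only was 77.2% at 50 bp, 58.0% at 100 bp, 33.0% at 150 to 200 bp and 11.5% at 250 to 450 bp. At 500 bp or more, 4 of 685 regions were parental-only (0.584%, interval 0.227 to 1.49). These 4 lay near Pcp4l1, Spa17, Tsga10 and Arntl.

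**Figure D1:**
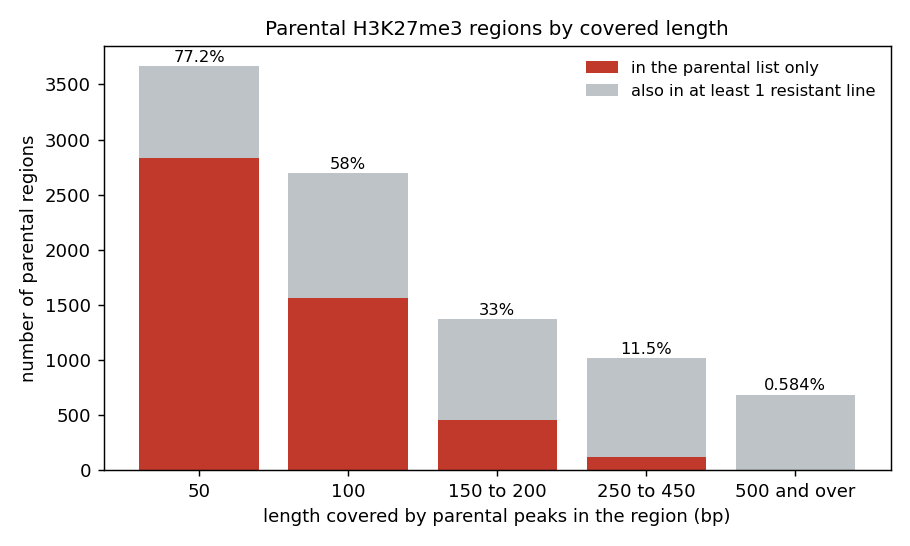
Number of parental H3K27me3 regions (y axis) by the length covered by parental peaks in bp (x axis). Red marks regions in the parental list only, grey marks those also found in a resistant line, and the percentage over each bar is the parental-only share, which goes from 77.2% at 50 bp to 0.584% at 500 bp and over.

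Many members lay just outside the border that the rule draws. A peak of a resistant line touched 566 parental-only regions (11.4%) without sharing a base with them. On the other side of the border, 1255 of the 4466 shared parental regions (28.1%) had only 50 bp of parental peak in common with the resistant lists, and 984 (22.0%) were shared with 1 resistant line only. Of these 984 regions, 365 were shared with R100, 413 with R500, 149 with R1000 and 57 with R4000. Absence from a single list was common, since R100 lacked 61.2% of all parental regions, R500 60.1%, R1000 71.02% and R4000 77.6%.

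Parental-only regions lay farther from transcription start sites (TSS) than the other classes of region but nearer than the genome at large, a property that the rule did not use. Of the 4967, 34.9% lay within 5 kb of a TSS (interval 33.6 to 36.3), against 69.4% (interval 68.1 to 70.8) of the shared parental regions. Regions of 1 resistant line only lay within this distance in 52.6% of cases for R100, 48.2% for R500, 51.7% for R1000 and 57.0% for R4000. The parental-only class therefore had the lowest share of the 5 single-line classes. The middles of 12.2% of the 200-bp tiles of the genome lay this close to a TSS. At the other end, 14.1% of parental-only regions were more than 50 kb from any TSS, against 4.48% of the shared parental regions and 6.95% to 8.31% of regions in 1 resistant line only.

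The difference was also seen at equal parental coverage, which does not equalize the width of the merged regions. Distance was measured from the edge of the merged region, so wider shared regions reach a TSS more easily. Among regions with 50 bp of parental peak, 33.6% of the 2829 parental-only regions and 62.5% of the 837 shared ones lay within 5 kb of a TSS. At 100 bp the shares were 35.9% and 66.2%, and at 150 bp they were 36.6% and 69.7%. At an equal region width of 50 bp, single-line regions had shares of 46.5% for R100, 42.9% for R500, 48.4% for R1000 and 55.3% for R4000.

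Close to the TSS itself parental-only regions were sparse. The 500 bp downstream of a protein-coding TSS held the middles of 44 parental-only regions (0.886%), against 7.88% of shared parental regions, 12.0% of R100-only and 13.3% of R4000-only regions. Between 500 bp and 5 kb, 15.3% of parental-only regions lay upstream and 11.4% lay downstream, whereas for shared parental regions the upstream share of 18.7% was below the downstream share of 30.7%. A protein-coding TSS was overlapped by 3 parental-only regions (0.0604%) and by 385 shared ones (8.62%). A wider region meets a TSS more easily, so the last comparison depends on width.

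**Figure D2:**
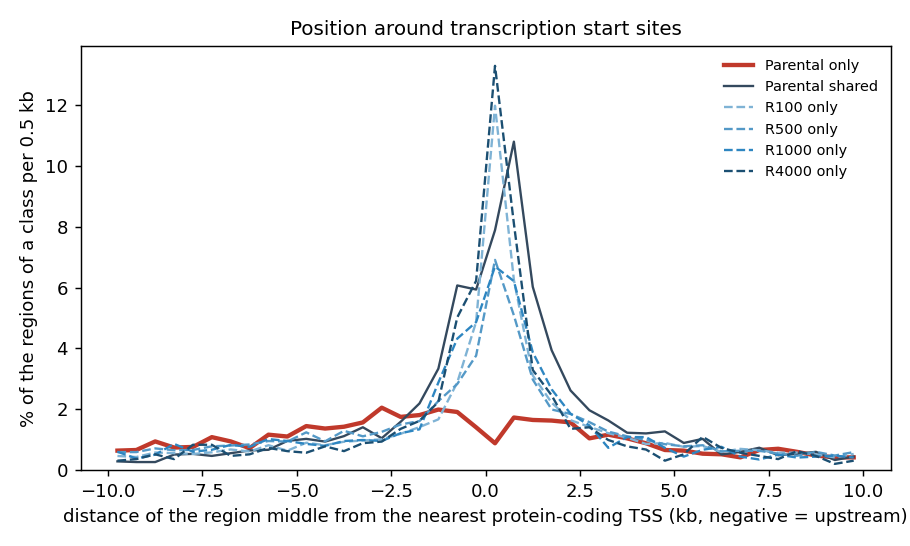
Share of the regions of each class (y axis, % per 0.5 kb) by the distance of the region's middle from the nearest protein-coding TSS (x axis, kb, upstream negative). Shared parental regions (dark solid line) peak at 500 to 1000 bp downstream of the TSS. The regions of 1 resistant line (dashed) peak at 0 to 500 bp downstream, where the parental-only line (red) has a dip of 0.886%.

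The 3 exceptions were small. C4bp, which encodes a complement-binding protein, had a region of 150 bp over its TSS (chr1:132558151-132558300), Rpl12-ps1 had one of 100 bp (chr1:37015351-37015450), and Clec12b, a C-type lectin of myeloid cells, had one of 100 bp (chr6:129335501-129335600). Each of them touched a peak of a resistant line. In the 5 kb on both sides of the C4bp region, R100 peaks covered 300 bp, R500 peaks 200 bp, R1000 peaks 250 bp and R4000 peaks 0 bp.

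In the gene annotation, 60.5% of parental-only regions lay outside genes and 33.3% in introns. Coding exons held 3.06% of them and untranslated exons 1.69%. Shared parental regions were placed in coding exons in 22.2% of cases and in untranslated exons in 8.55%.

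The base composition also differed. It was measured in a fixed window of 200 bp around the middle of the merged region, so that every region was compared over the same length. In wide shared regions this window need not hold the parental peak. The median GC content was 45.0% in parental-only regions, 52.0% in shared parental regions, 53.0% in R100-only, 50.5% in R500-only, 47.5% in R1000-only and 48.5% in R4000-only regions. The median over all 200-bp tiles of the genome was 41.5%. At least 5 CpG dinucleotides were found in 10.3% of parental-only regions (interval 9.45 to 11.1) and in 51.9% of shared parental regions (interval 50.4 to 53.3). The same share was 44.1% in R100-only, 33.5% in R500-only, 30.03% in R1000-only and 39.6% in R4000-only regions, and 6.79% over the genome's tiles. No CpG at all was present in 19.2% of parental-only windows, 5.46% of shared parental windows and 30.7% of the genome's tiles. Parental-only regions thus lay between the genome's tiles and every other class on all 3 measures. For CpG-rich windows this place was lost with peaks within 1000 bp joined, where the parental-only share was 5.98%, below that of the tiles.

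At equal parental coverage the difference in CpG remained, with the window again at the middle of the merged region. With 50 bp covered, 10.3% of parental-only and 43.7% of shared regions held at least 5 CpG, and with 150 bp covered the shares were 9.37% and 47.7%. The ratio of observed to expected CpG had a median of 0.178 in parental-only regions, 0.385 in shared parental regions and 0.292 in all union regions.

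**Figure D3:**
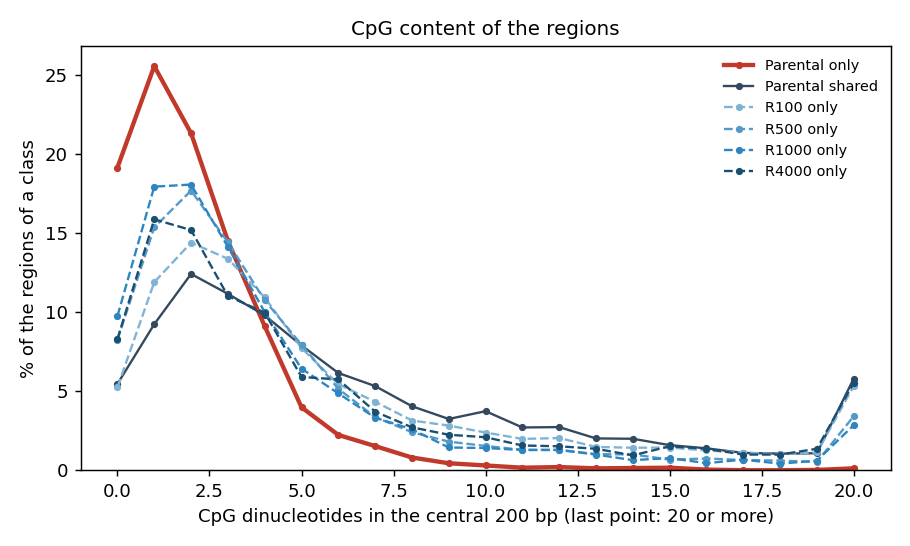
Share of the regions of each class (y axis, %) by the number of CpG dinucleotides in the central 200 bp (x axis, with 20 or more pooled in the last point). Parental-only regions (red) gather at 0 to 3 CpG and nearly vanish above 10, while the shared parental and resistant-line classes keep a long tail.

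Short motifs were counted in the same windows on both strands. The GC box GGGCGG, a binding sequence of Sp1-type factors, was present in 2.07% of parental-only, 13.1% of shared parental and 10.6% of all union regions. GCGCGC was present in 0.322%, 5.58% and 3.58%. These motifs contain CpG and can share bases with each other. Of the 4 motifs without CpG, 2 were close between the parental classes. The E-box CAGCTG, which factors such as E2A can bind, was present in 10.3% of parental-only regions, 10.8% of shared parental regions and 12.6% of all union regions, and the ETS motif GGAAGT in 11.7%, 11.8% and 12.4% (all regions included the members). The E-box CAGGTG was less frequent in parental-only regions, at 14.1% (interval 13.2 to 15.1) against 16.9% (interval 15.8 to 18.03) of shared parental and 17.3% of all union regions. The octamer ATGCAAAT, a binding sequence of Oct factors, was found in 53 parental-only regions (1.07%), against 0.627% of shared parental and 0.743% of all union regions, and R1000-only and R4000-only regions had 1.15% and 1.10%. The central 50 bases occurred more than once in the genome in 21 parental-only regions (0.423%) and in 0.432% of all regions. Only exact copies were counted, and the placement of the reads that made up the peaks was not tested.

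Most parental-only regions lay near marked chromatin of the resistant lines. A resistant-line peak was found within 1 kb of 48.6% and within 5 kb of 72.5% (3602 regions), with a median distance of 1100 bp. By line, a peak lay within 5 kb of 58.0% for R100, 59.7% for R500, 38.4% for R1000 and 30.8% for R4000. The lists of R100 and R500, with the larger shares, also held more peaks than those of R1000 and R4000. Measured against their own 4 other lists, R100-only regions had a peak within 5 kb in 66.6% of cases, R500-only in 75.8%, R1000-only in 76.7% and R4000-only in 76.8%.

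Around the members, peaks of every line were denser than farther out. At 500 to 1000 bp from the middle, 5.07% of parental-only regions were covered by an R100 peak, 5.28% by an R500 peak, 1.87% by an R1000 peak and 1.05% by an R4000 peak. At 8 to 10 kb these values were 2.49%, 2.44%, 0.997% and 0.641%. Other peaks of the parental line followed the same course, with 2.68% near and 1.26% far. The zero at the centre is set by the rule.

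**Figure D4:**
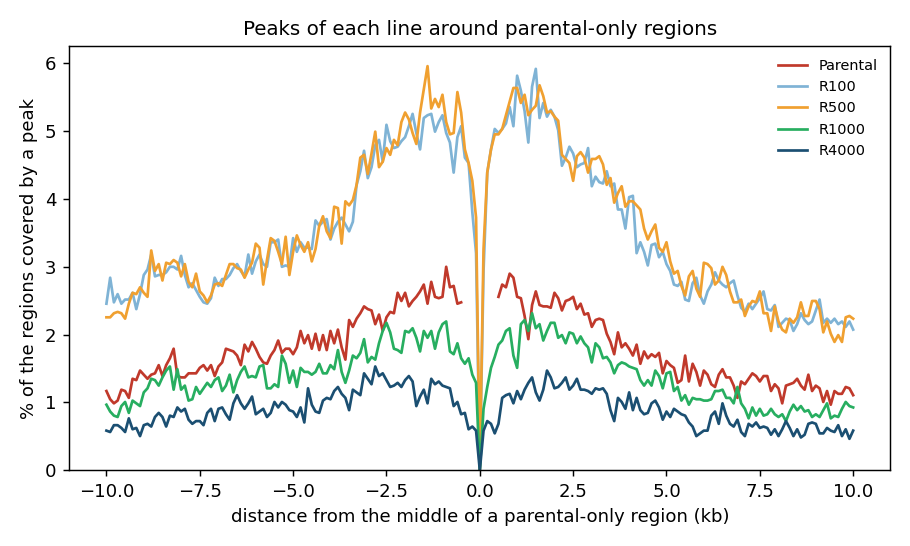
Share of parental-only regions (y axis, %) covered by a peak of each line at a given distance from the region's middle (x axis, kb). The resistant lines fall to 0 at the centre because the rule requires it and lie higher on both sides within about 3 kb than at 8 to 10 kb, with R100 and R500 above R1000 and R4000. The parental line is drawn from 0.5 kb outward.

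The other 1365 parental-only regions had no resistant-line peak within 5 kb. These isolated regions were farther from genes, with 15.02% within 5 kb of a TSS and 24.5% more than 50 kb away, and 6.30% held at least 5 CpG, near the 6.79% of the genome's tiles. The 3602 regions with a resistant peak nearby had 42.5% within 5 kb of a TSS and 11.8% with at least 5 CpG. Both shares were still below those of each class found in 1 resistant line only. Of the isolated regions, 65.9% were 50 bp wide and 6 reached 300 bp.

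The widest parental-only regions were described with the coverage of each line around them. The region of 600 bp near Pcp4l1 (chr1:173126651-173127250), which encodes a relative of the Purkinje cell protein Pcp4, lay 252 bp upstream of the TSS. Within 5 kb on both sides of it the parental list covered 1850 bp, R100 2400 bp, R500 2600 bp, R1000 1200 bp and R4000 750 bp, and a resistant-line peak touched it. All 5 lines thus had peaks beside it.

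The region of 600 bp near Spa17 (chr9:37392801-37393400) was of another kind. It lay outside genes, 27799 bp downstream of the TSS of Spa17, which encodes a sperm surface protein. The parental list covered 950 bp around it, R500 50 bp, and R100, R1000 and R4000 0 bp.

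Tsga10, a gene named for its expression in testis, held a region of 550 bp in an intron (chr1:37917951-37918500). The coverage within 5 kb was 800 bp in the parental list, 450 bp for R100, 350 for R500, 300 for R1000 and 100 for R4000. The region of 550 bp at Arntl (chr7:120348351-120348900), the circadian transcription factor also called Bmal1, lay 2079 bp upstream of the TSS. Here the parental list covered 1250 bp, R100 750 bp, R500 1200 bp, R1000 400 bp and R4000 900 bp. Both stretches were thus flanked by peaks in every line.

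Ptch1, the receptor for hedgehog ligands, had an intronic region of 450 bp (chr13:63672551-63673000) that touched a resistant-line peak, with coverage of 1650 bp in the parental list and 700 to 2550 bp in the resistant lists. The region of 450 bp in the kappa locus (chr6:68409851-68410300) lay between variable gene segments, 22389 bp from the TSS of Igkv15-103. Around it the parental list covered 450 bp, R500 100 bp, R100 and R4000 50 bp each, and R1000 0 bp.

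The rest of the 20 widest ran from 350 to 450 bp. Regions at Kdm3a, a histone H3 lysine 9 demethylase (chr6:71587151-71587550), and at Tax1bp1, an autophagy receptor (chr6:52638401-52638800), were of 400 bp, the former 4252 bp and the latter 24923 bp upstream of the TSS. R4000 had 0 bp within 5 kb of either, while R100 had 150 bp at Kdm3a and 50 bp at Tax1bp1. A region of 400 bp lay in an intron of Rabgap1l (chr1:162721301-162721700), 1369 bp downstream of the TSS. A further one lay upstream of H60b, a ligand of the activating receptor NKG2D (chr10:21876151-21876550), amid coverage of 2750 bp in the parental list and 750 to 3450 bp in the resistant lists. The others of this group were near Gm13334, Gm10631 within Bean1, Gm13655, Spaca7, Nxnl2, Gm17649, Gm10567 within Lrrc67, Gm17570, and a miRNA gene model named AC156988.1, whose nearest protein-coding gene was Eya1.

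Among the 5 widest regions more than 50 kb from any TSS, the one nearest to Atp6v1g3 (chr1:140267001-140267350, 350 bp) had the largest distance to a resistant-line peak, 23850 bp, and within 5 kb no resistant list covered a base. The region of 300 bp upstream of Nck2 (chr1:43386201-43386500) had 50 bp of R100 peak within 5 kb, and 0 bp of R500, R1000 and R4000. The region of 300 bp nearest to Lrig1 (chr6:94708901-94709200) lay in a marked stretch, with 1150 bp for R100, 1600 for R500, 700 for R1000 and 250 for R4000.

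Some genes held many parental-only regions along their introns. Antxr1, an anthrax toxin receptor, had 17 among 27 parental regions, of which 16 were intronic, and R100 had 73 regions in the same gene, R500 40, R1000 8 and R4000 7. Jazf1, a zinc finger gene, had 13 among 18, with 23 regions for R100, 14 for R500, 3 for R1000 and 1 for R4000. In both genes the parental-only regions were interspersed with regions of the resistant lines.

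Sgcd, the delta subunit of the sarcoglycan complex of muscle, had 15 parental regions and all 15 were parental-only. R100 had 10 regions in Sgcd, R500 6, and R1000 and R4000 1 each, none of which overlapped a parental peak. Rabgap1l, a GTPase-activating protein, had 12 among 15, with 3 regions for R100, 7 for R500, 3 for R1000 and 2 for R4000. Chi3l3, a chitinase-like gene of macrophages, had 12 among 17, and R100 had 2 regions there, R500 4, R1000 6 and R4000 3. The Chi3l3 model includes Chi3l4, to which 6 of these members and 10 of these parental regions were also counted. In Sgcd, Rabgap1l and Chi3l3 the parental list had more regions than each resistant list.

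Of the other genes with the most members, 4921507P07Rik had 11 among 12, Eif4e3, a translation cap-binding protein, 11 among 18, and Gm5607 11 among 31. Gm20388 had 23 among 45 and Fgfr2, a fibroblast growth factor receptor, 17 among 40, but these models span 4439.9 and 3014.1 kb in the annotation and include other genes. Members per gene were not scaled to length. Of 326 protein-coding genes with at least 5 parental regions, 21 had parental-only regions alone, and 0 of the 326 were without any resistant-line region.

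**Figure D5:**
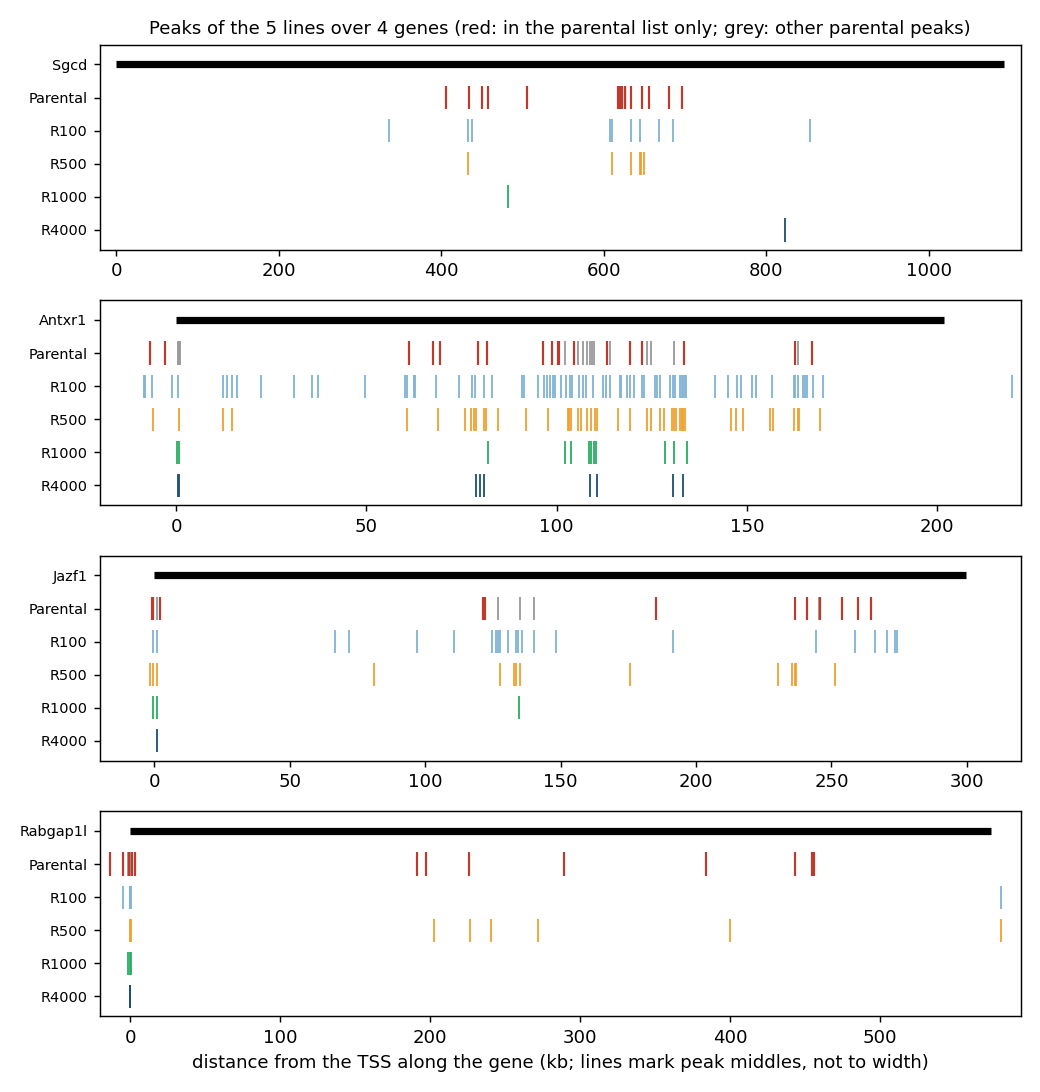
Middles of the peaks of the 5 lines (rows) over 4 genes with many parental-only regions, by distance from the TSS (x axis, kb), with the gene as a black bar and 20 kb on both sides. All 15 parental peaks of Sgcd are red (parental list only), while in Antxr1 they alternate with peaks of R100 and R500.

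Runs of parental-only regions, with gaps of at most 50 kb and no other region between them, were counted. There were 133 runs of at least 3, with 461 regions (9.28%). Single-line regions formed such runs in 19.4% of cases for R100, 10.8% for R500, 0.192% for R1000 and 0.314% for R4000. The number of regions differed between these classes, and its part in the shares was not tested. The longest run had 9 regions over 19.75 kb at 4921507P07Rik (chr6:50526051-50545800). The next had 7 near Eya1, a developmental phosphatase (chr1:14055051-14088850), and 6 between Tnfsf4 and Tnfsf18, genes for T-cell costimulatory ligands (chr1:163368001-163401150).

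Chromosomes 1 and 6 held 624 and 693 parental-only regions, or 3.16 and 4.64 per Mb, and together 26.5% of all. They also held 23.5% of all parental regions, and the share of their parental regions found in no resistant line was 59.6% and 59.1%. The X chromosome held 35 regions (0.210 per Mb) among only 64 parental regions (0.384 per Mb). That share of 54.7% (interval 42.6 to 66.3) was near the 52.7% of all parental regions. The parental-only share of parental regions ranged on the autosomes from 38.6% on chromosome 15 and 39.6% on chromosome 11 to 63.2% on chromosome 18 and 66.5% on chromosome 16. Without chromosomes 1 and 6, a setting chosen after seeing the data, 37.8% of parental-only regions lay within 5 kb of a TSS and 11.2% held at least 5 CpG.

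The densest window of 1 Mb was on chromosome 6 (chr6:68000001-69000000), with 44 parental-only regions among 66 parental ones. It lies in the immunoglobulin kappa locus, which joins variable, joining and constant segments in B cells to make the light chain. Over the whole locus (chr6:67505630-70676751) 62 of 89 parental regions were parental-only (69.7%, interval 59.5 to 78.2). The share was 52.7% over all parental regions and 59.1% over those of chromosome 6. The locus held 79 regions for R100, 88 for R500, 51 for R1000 and 30 for R4000, and the covered length was 14050 bp in the parental list, 11750 bp for R100, 12300 for R500, 7950 for R1000 and 5600 for R4000. The parental list covered more of this locus than either R100 or R500, although it held fewer peaks in all. The heavy chain locus had only 8 parental regions, of which 5 were parental-only (interval 30.6 to 86.3). The T-cell receptor alpha locus had 6, of which 5 were parental-only (interval 43.65 to 96.99). Both intervals include the 52.7% of all parental regions.

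Parental-only regions were a small share in the Hox clusters, against 52.7% of all parental regions. Covered length was not equalized here. Over all parental regions the share fell from 77.2% at 50 bp covered to 0.584% at 500 bp and over. In Hoxa 4 of 31 parental regions were parental-only (12.9%, interval 5.13 to 28.9) and in Hoxb 4 of 20 (interval 8.07 to 41.6). Hoxc had 12 of 66 (interval 10.72 to 29.15) and Hoxd 2 of 10 (interval 5.67 to 50.98). The covered length of Hoxa was 30750 bp in the parental list, 43650 bp for R100, 43300 for R500, 28250 for R1000 and 22150 for R4000. The Gimap cluster of GTPases of lymphocytes had 6 parental regions, all parental-only, with 1100 bp covered in the parental list, 100 bp in R100, 50 bp each in R500 and R1000 and 0 bp in R4000. The antigen receptor loci and the Gimap cluster were chosen after their values had been seen.

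Around the TSS of protein-coding genes, 1295 of 22367 genes (5.79%) had a parental-only region within 5 kb. That was 52.7% of the 2456 genes with any parental region there. In 697 genes every parental region was parental-only, and in 154 genes, 6.27% of those with a parental region, no resistant line had a region either (0.689% of all protein-coding genes). Among the latter the longest mark was 300 bp at Serpinb1a, a serine protease inhibitor of leukocytes. Regions of 200 bp marked Olfr371 and the neighbouring histone genes Hist1h1e and Hist1h2be, which shared 1 region, and Gm6177 had 250 bp in 2 regions.

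Hox genes and other developmental transcription factors with a parental-only region also had a resistant-line region within 5 kb of the TSS. Most marked genes of any kind did so too. Of 30 Hox genes with a parental region, 16 had a parental-only region, near the 52.7% of all marked genes, and 0 had parental-only regions alone. Hoxc8 had 2 parental-only regions among 7 parental ones, with 8, 10, 7 and 3 regions in R100, R500, R1000 and R4000. Of 66 other developmental transcription factors with a parental region, 33 had a parental-only region, close to the same share, and 2 had parental-only regions alone, namely Sox7 and Neurod1. At Foxb1, Foxd3 and Neurod1 neither R1000 nor R4000 had a region. Foxq1 had 1 of 250 bp among 3, Foxd1 3 among 6 and Neurog2, a neuronal fate factor, 3 among 8. No marked gene of either list was without a resistant-line region, and over all marked genes that share was only 6.27%.

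Olfactory receptor genes, which are CpG-poor and silent outside the nose, were the reverse where they were marked. Of 1087 such genes only 20 had a parental region (1.84%, against 10.98% of all protein-coding genes). A parental-only region was thus rarer than over all protein-coding genes (5.79%). All 20 marked genes had a parental-only one, against 52.7% of all marked genes. In 18 it was the only kind (28.4% of all marked genes), and in 10 (50%, against 6.27%) no resistant line had a region. Apart from Olfr371, these regions were 50 or 100 bp wide, where 77.2% and 58.0% of all parental regions were parental-only. Examples were Olfr371 with 200 bp, and Olfr263, Olfr66, Olfr69 and Olfr703 with 100 bp each. These genes lie in clusters, so neighbours can share a region.

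Of 33 genes of the Polycomb system and of H3K27 demethylases, 10 had a parental region (30.3%, against 10.98% of all protein-coding genes). A parental-only region was present at 5 of these 10, a share near the 52.7% of all marked genes. Pcgf3, a subunit of a variant of Polycomb repressive complex 1, had 3 regions of 400 bp in all, the widest of 300 bp, and all its parental regions were parental-only. R100 and R500 each had 1 region at Pcgf3, R1000 had 0 and R4000 had 2. The others were Cbx6, Phc1 and Pcgf2, which are subunits of forms of Polycomb repressive complex 1, and Rnf2, a ubiquitin ligase of complex 1.

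Of 29 B-cell transcription factors, 3 had a parental region (10.3%, against 10.98% of all protein-coding genes) and 2 a parental-only one. Bcl6, the repressor of germinal centre B cells, had 2 parental-only regions of 100 bp among 6, with 6 regions for R100, 5 for R500, 6 for R1000 and 2 for R4000. Tcf12, a relative of E2A, had 1 region of 50 bp, with 3 regions for R100, 4 for R500, 2 for R1000 and 1 for R4000. Of 33 surface and receptor signalling genes, 4 had a parental region (12.1%) and Cd40, Cd81 and Lyn had a parental-only one. With so few marked genes, neither list's share can be set apart from the 52.7% of all marked genes. In R100, R500, R1000 and R4000, Cd40 had 1, 3, 1 and 2 regions, Cd81 2, 1, 1 and 1, and Lyn 2, 0, 1 and 0. No marked gene of either list was without a resistant-line region within 5 kb, and over all marked genes that share was only 6.27%.

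Among 47 genes for detoxification and efflux of alkylating agents, 9 had a parental region and 4 a parental-only one. Gstt1, a glutathione transferase, had 1 region of 150 bp and no other parental region, and the resistant lines had 1 region for R100, 2 for R500, 0 for R1000 and 1 for R4000. Abcc3 and Abcg1, both transporters, had 2 regions each, and Aldh1a2, which makes retinoic acid, had 1. Of 53 apoptosis genes 9 were marked and 6 had a parental-only region, among them Gadd45g and Bik. Of 60 DNA repair genes 3 were marked, and Ercc5, a nuclease of nucleotide excision repair, had the only parental-only region, of 100 bp. With so few marked genes these shares cannot be set apart from the 52.7% of all marked genes. No marked gene of the 3 lists was without a resistant-line region within 5 kb, and over all marked genes that share was only 6.27%.

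In the remaining lists, a parental-only region was present at 6 of 32 marked ribosomal protein genes, 12 of 32 solute carrier genes, 9 of 23 potassium channel genes and 10 of 26 genes for Wnt, Fgf, Bmp, Tgf-beta and hedgehog ligands. It was present at 2 of 7 marked factors of other blood lineages and at 0 of 1 protocadherin gene. Against 52.7% of all marked genes, the ribosomal protein genes with 18.8% had the lowest share among lists with at least 20 marked genes, and the olfactory receptor genes with 100% the highest. No resistant line had a region at 2 of the 32 marked solute carrier genes and 1 of the 23 marked potassium channel genes (6.25% and 4.348%, against 6.27% of all marked genes). These were Slc5a2, Slc19a1 and Kcnk16, with parental-only regions of 100, 50 and 50 bp. The same held for Bmp10, a ligand of the heart, with 1 of 50 bp.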

How the data were processed

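H3K27me3 ChIP-seq was analysed for 5 lines. RRBS of the same lines was not analysed here. Per the methods of the authors, reads of 50 bases were obtained from precipitated and input chromatin, and they called peaks against input in windows tiling the genome with Poisson statistics. The submitters' processing notes name Bowtie and mm9. They deposited 1 peak list per line with chromosome, start and end, so the deposited values are coordinates on the genome (base pairs) and hold neither read counts nor scores. The methods give an enrichment threshold for the clustering of promoters. The depth, the threshold of the deposited lists and whether they pool the study's replicate libraries are not given in the sources used here.

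Samples were matched to lines by their labels. The R100 and R500 lists hold each row 2 times, and distinct rows were used. Peaks sharing at least 1 bp were merged with Python 3.11.15 (pandas 2.3.3, numpy 2.4.6), and bedtools 2.31.1 gave the same 4967 members. The merging and counting steps were tested on simulated data. TSS and exons were those of GENCODE M1 (Ensembl 65) for 37273 genes on NCBIM37, whose chromosome lengths fit the peaks. A gene counted as marked where a region lay within 5 kb of its TSS, and genes with most members were counted from 5 kb upstream to the gene end. GC and CpG were counted in the central 200 bp, with at least 5 CpG called CpG-rich. Wilson intervals used scipy 1.17.1, figures matplotlib 3.10.9 and the search for repeated 50-mers numba 0.67.0.

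Since each line has 1 list, lines were not tested against each other and no p-value is given. The regions named are the 20 widest, those over a protein-coding TSS, the 5 widest more than 50 kb from a TSS, the 10 genes with most members, and members of the gene lists, with the widest marks first. The members and lists were chosen with earlier results of these data known. Alternatives were peaks within 1000 bp joined, parental peaks of at least 150 bp, lists of equal number, autosomes only, each resistant list left out, and other distances and windows.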

Additional observations from a re-analysis of the deposited data

How the results depend on the processing

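Of 58 recomputed values, 29 stayed within the interval of the reported share or within 1.5 times the reported count, and 29 did not. The number of parental-only regions fell to 2425 with peaks within 1000 bp joined, 574 with parental peaks of at least 150 bp, and 2707 when every list was cut to the 6820 widest peaks. The share within 5 kb of a TSS was 22.8%, 38.5% and 39.5% under these 3 settings, 37.7% with the R100 list left out, 37.9% with R500 left out, 32.3% with touching peaks joined (chosen after seeing the data), 29.3% for protein-coding genes only and 16.5% within 2 kb. The share 50 bp wide was 60.9%, 0% and 1.44% under the 3 settings, 55.4% without R100 and 54.5% without R500. The CpG-rich share was 5.98% with peaks joined, 12.6% with equal lists, 13.7% without R100, 12.6% without R500, 8.45% with touching peaks joined and 6.30% in the central 500 bp. A resistant-line peak lay within 5 kb of 45.9%, 83.1% and 57.2% under the 3 settings, 67.9% without R100, 68.1% without R500 and 69.0% with touching peaks joined, and within 1 kb of 48.6%. The shares of repeated 50-mers stayed within their interval under each setting. Except where a setting's own construction fixes the value, the cause of these shifts was not tested.

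With lists of equal number, the parental-only class still had the lowest share near a TSS among the single-line classes, at 39.5% against 58.1% to 69.0%, and the lowest CpG-rich share, at 12.6% against 34.96% to 60.1%. With peaks joined the shares were 22.8% against 34.2% to 44.9%, and 5.98% against 22.9% to 41.0%. Depth is unknown, and 1 list per line gives no spread, so a region absent from a list cannot be told apart from one below the calling threshold. No paired analysis was possible because each line has 1 list and no test was made.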
